A study of Mus musculus with 6 samples.

Results

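Ets family transcription factors were followed across an array comparison of pre-pro-B cells with and without restored Ebf1, the early B cell factor that these cells lack. The set was defined by 10 gene names: Spib, Sfpi1 (which encodes PU.1), Ets1, Ets2, Elf1, Elf4, Elk3, Fli1, Etv6 and Gabpa. Every probe whose array gene name equals one of these was taken, which gave 19 of the 41174 probes on the array and 9 of the 10 names. No probe carries the name Elf4, and 2 probes with the RefSeq accession of Elf4 are described separately and were not counted as members.

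All 6 samples are mouse pre-pro-B cells labelled Ebf1 -/-, so the deletion is shared by both groups. Cultures held OP9 stromal feeder cells and received Flt3 ligand, stem cell factor and interleukin 7, each at 10 ng/ml. The control group (n = 3) was infected with the retrovirus pMYs-IRES-EGFP, which carries only the green fluorescent marker, and the Ebf1 group (n = 3) with pMYs-Ebf1beta-IRES-EGFP. Total RNA came from EGFP-sorted cells 24 h after infection. The age and number of the source animals are not given in the sources used here, and nothing in the labels says that replicates came from separate cultures, so p-values measure only the spread between these samples. The small number of arrays limits the precision.

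Ets factors share a winged helix-turn-helix DNA-binding domain that recognises sequences with a GGAA core, and differ in the partners they bind beside it. PU.1 sets the balance between myeloid and lymphoid fates in blood progenitors, and its close relative Spi-B is best known from B cells and plasmacytoid dendritic cells. Ets1, Fli1, Elf1 and GABP alpha are broadly expressed in blood cells, whereas Etv6 is chiefly a repressor.

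Values are log2 signals relative to the 75th percentile of the same array, and changes are Ebf1 virus minus control virus with the standard error (SE) of a limma fit over 20453 tested probes. A probe is called when its limma adjusted p is under 0.05. All 19 member probes were well above background on all 6 arrays, compared with 44.9% of the whole array. The share of all probes above background ran from 46.3% to 50.2% in the control group and from 50.4% to 59.8% in the Ebf1 group, with Ebf1 replicate 3 the highest. Slide 1 held control replicate 2 and Ebf1 replicate 1, slide 2 the other control arrays and slide 3 the other Ebf1 arrays, so only slide 1 allows a comparison within a slide. An Ebf1 probe read 0.86, 0.10 and 0.36 on control replicates 1 to 3 and 0.22, 0.40 and 0.27 on Ebf1 replicates 1 to 3 (log2 change -0.15 ± 0.21, limma adjusted p = 0.65). A second Ebf1 probe was not above background on any array and was not tested. Whether either probe lies in the deleted or the viral part of the transcript was not analysed here, so they check nothing about the labels.

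Of the 9 measured Ets genes, each read by its brightest probe, Spib and Ets2 rose and none fell (22.2% called, limma). Among all 13836 tested genes 23.6% were called, 12.6% rising and 11.0% falling, so the share among the Ets genes lay near the background. By probe, 3 of 19 were called against 21.7% of tested probes: 2 rose against 11.5% and 1, a second Etv6 probe, fell against 10.2%. The groups did not overlap on 5 of the 19 probes, against 42.6% of tested probes. The median log2 change of the member genes was -0.08 (all genes -0.06), and the median absolute change of the member probes was 0.22 (all tested probes 0.33). The set thus held a pair of genes with large rises and 16 probes with small, uncalled changes between -0.37 and 0.27. For 15 of those 16 the 95% confidence interval lay within 1 log2 unit of no change.

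**Figure D1:**
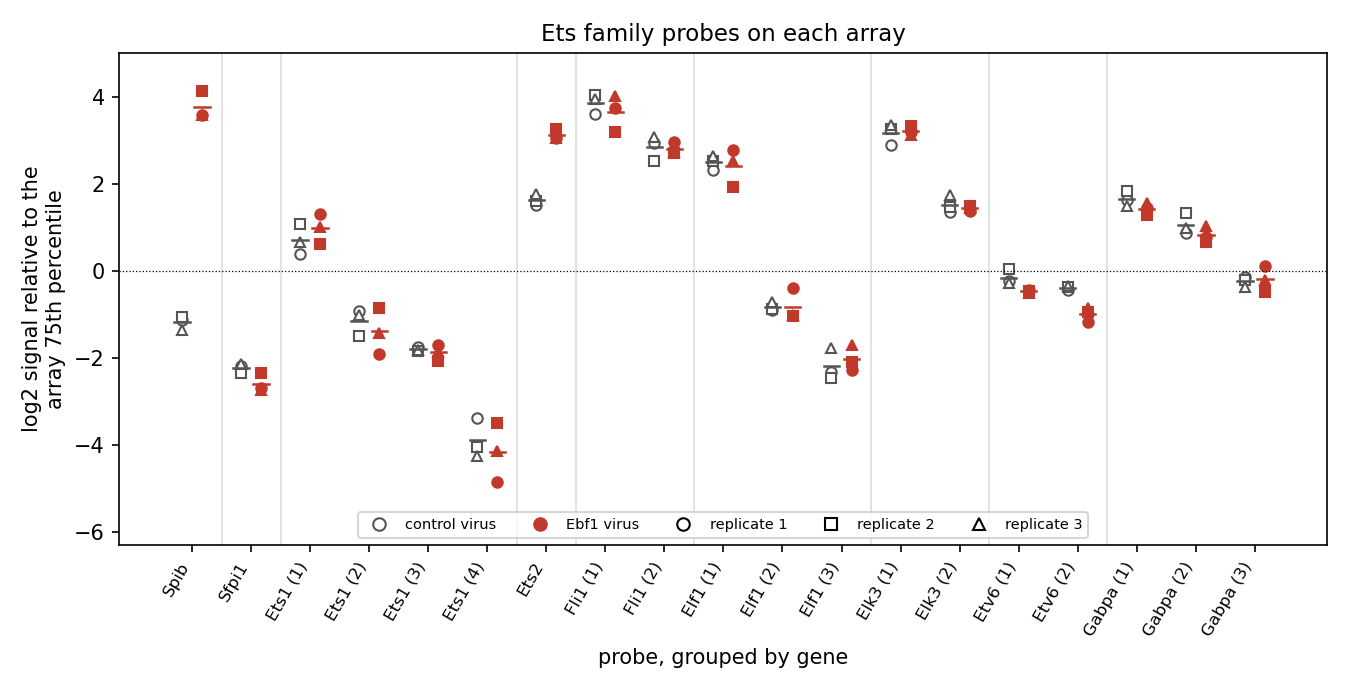
Log2 signal relative to the array's 75th percentile (vertical axis) for the 19 Ets family probes (horizontal axis), with open symbols for control virus, filled symbols for Ebf1 virus, a marker shape per replicate and a bar at each group mean (n = 3). Spib moves from between -1.37 and -1.05 to between 3.58 and 4.13 and Ets2 from between 1.50 and 1.77 to between 3.05 and 3.25, while most other probes overlap; numbers in brackets order the probes of a gene by brightness, and heights of different probes are not comparable as RNA amounts.

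Spib, the gene of Spi-B, showed the greatest change of the set. Its probe (mm9 chr7:51781646-51781705, minus strand) read -1.14, -1.05 and -1.37 on control replicates 1 to 3, and 3.58, 4.13 and 3.58 on Ebf1 replicates 1 to 3. All Ebf1 arrays lay far above all control arrays, and the probe was above background in both groups. The group means were -1.19 ± 0.16 and 3.76 ± 0.32 (SD, n = 3 each), which is 30.9-fold. The log2 change was 4.95 ± 0.20 (95% interval 4.50 to 5.40, limma adjusted p = 3.95e-06), rank 94 of the 20453 tested probes from the greatest rise down. Within slide 1 the difference was 4.63, and leaving out each array in turn gave 4.77 to 5.04. In bulk RNA, more Spib in each cell and more cells with Spib cannot be told apart.

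Ets2, a nuclear effector of Ras and MAP kinase signalling, was the other member that rose. Its probe (mm9 chr16:95942227-95942286, plus strand) read 1.50, 1.60 and 1.77 on the control arrays and 3.05, 3.25 and 3.05 on the Ebf1 arrays. The 2 groups were separated by more than the whole spread within either. The rise was 2.83-fold (log2 change 1.50 ± 0.15, 95% interval 1.16 to 1.84, limma adjusted p = 0.000334), and 4.48% of tested probes had a log2 change at least as high. Within slide 1 it was 1.46, over the leave-one-out fits 1.43 to 1.57, and with median scaling, which moves the median of all tested probes from -0.06 to -0.37, it was 1.19.

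The promoters of these 2 genes are shown because they rose, and that of Elk3 because it holds more matches to the core bound by EBF factors than any other member window while its probes did not pass the test. The windows run from 250 bases before to 50 after the start site (RefSeq, GRCm38.p6), 5′ to 3′ on the gene's strand: Spib chr7:44532022-44532321 (minus), Ets2 chr16:95702157-95702456 (plus) and Elk3 chr10:93311110-93311409 (minus). Capitals mark every match to CCCNNGGG, a core of the EBF motif that is its own reverse complement, and overlapping matches form one run of capitals.
Spib promoter: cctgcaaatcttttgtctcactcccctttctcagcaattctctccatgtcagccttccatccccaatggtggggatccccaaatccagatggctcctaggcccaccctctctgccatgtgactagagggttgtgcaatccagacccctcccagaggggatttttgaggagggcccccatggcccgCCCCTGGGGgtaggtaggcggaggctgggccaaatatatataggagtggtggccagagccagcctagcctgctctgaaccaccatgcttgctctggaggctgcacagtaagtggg
Ets2 promoter: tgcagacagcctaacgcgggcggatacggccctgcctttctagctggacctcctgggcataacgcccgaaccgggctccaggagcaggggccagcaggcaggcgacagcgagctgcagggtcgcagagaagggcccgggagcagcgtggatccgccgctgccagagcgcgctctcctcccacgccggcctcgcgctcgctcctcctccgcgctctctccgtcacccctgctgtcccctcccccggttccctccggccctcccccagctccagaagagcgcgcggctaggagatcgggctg
Elk3 promoter: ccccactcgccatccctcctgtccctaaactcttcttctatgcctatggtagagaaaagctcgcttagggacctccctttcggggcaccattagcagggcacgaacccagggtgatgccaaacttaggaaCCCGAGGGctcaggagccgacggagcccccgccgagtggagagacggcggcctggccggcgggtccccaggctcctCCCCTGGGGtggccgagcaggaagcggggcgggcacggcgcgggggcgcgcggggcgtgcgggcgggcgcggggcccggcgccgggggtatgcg
The Spib window holds 2 overlapping matches, with first bases at -65 and -64 relative to the start site. Elk3 holds 3 (-120, -44 and -43), the first of the 2 Elf1 windows holds 2 (-174 and -87), and an Elf4 window holds 1. Windows were at hand for 7 of the 10 genes, and those of Ets2, Etv6 and Gabpa have no match to these letters. CCCNNGGG occurs in 13.67% of the 32851 windows of this length in the table, GGAA on either strand in 95.98%, and the PU box GAGGAAGT, which overlaps GGAA, in 3.2%. Among the member windows only that of Gabpa holds the PU box. A match is a description of the letters, and binding was not measured.

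PU.1 did not move with its relative. The single Sfpi1 probe read -2.19, -2.34 and -2.15 on the control arrays and -2.70, -2.35 and -2.75 on the Ebf1 arrays. Every Ebf1 array was below every control array, but the nearest pair (control replicate 2 and Ebf1 replicate 2) was almost equal. Its log2 change was -0.37 ± 0.16, which was not called (95% interval -0.75 to 0.0045, limma adjusted p = 0.143), and within slide 1 it was -0.36. The probe is listed over 13788 bases of chromosome 2 (mm9 chr2:90939665-90953452), although it is 60 bases long, and it was not placed in exons here. It is printed because it is the only probe behind the PU.1 value, with no base singled out in capitals.
A_52_P498086: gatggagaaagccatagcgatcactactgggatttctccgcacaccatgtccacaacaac

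Ets1, a broadly expressed lymphoid factor, was read by 4 probes, none of which was called. The brightest (A_52_P194250) read 0.38, 1.06 and 0.67 on the control arrays and 1.31, 0.60 and 1.00 on the Ebf1 arrays (log2 change 0.27 ± 0.24, 95% interval -0.30 to 0.83, limma adjusted p = 0.461). The second (A_52_P232830) read -0.93, -1.49 and -1.02, then -1.91, -0.85 and -1.42 (-0.25 ± 0.29, adjusted p = 0.571). Both sets of arrays overlapped, and in each group the array that was highest on the first of these probes was lowest on the second. Next in brightness, A_52_P258291 lay between -2.07 and -1.70 on all 6 arrays, with a log2 change of -0.07 ± 0.15. The dimmest (A_51_P329043) read -3.39, -4.05 and -4.26, then -4.84, -3.49 and -4.14, and its log2 change of -0.26 ± 0.36 had the widest interval of the set (-1.11 to 0.58). Within slide 1 the differences of the 4 probes were 0.25, -0.42, 0.15 and -0.80 in that order, so they differ in sign.

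The second and the dimmest Ets1 probe lie on overlapping positions of chromosome 9 (mm9 chr9:32561826-32561885 and chr9:32561816-32561875, plus strand), in a stretch that encodes part of the Ets DNA-binding domain. They are shown because they differ within the overlap, together with the probe of Etv2 (mm9 chr7:31418776-31418835, minus strand), another family gene, which shares a run with them. In the Ets1 probes capitals mark the 4 bases at which they differ over the 50 shared positions, and in the Etv2 probe the 20-base run that it shares with an Ets1 probe.
A_52_P232830: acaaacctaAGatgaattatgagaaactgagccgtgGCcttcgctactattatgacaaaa
A_51_P329043: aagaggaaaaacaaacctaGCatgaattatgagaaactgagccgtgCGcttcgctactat
A_51_P137560: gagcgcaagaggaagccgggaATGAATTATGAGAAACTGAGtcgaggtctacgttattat
The array annotates A_52_P232830 with a RefSeq transcript and A_51_P329043 with an older GenBank entry. The Etv2 probe was above background on Ebf1 replicate 3 only and was not tested. Whether either gene's RNA binds the other's probe was not tested.

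Fli1, which acts in megakaryocytes and early B cells, did not pass the test on either probe. The brighter (A_52_P821) read 3.60, 4.03 and 3.95 on the control arrays and 3.74, 3.19 and 4.01 on the Ebf1 arrays, with Ebf1 replicate 2 the lowest and the groups overlapping. Its log2 change was -0.21 ± 0.24 (95% interval -0.76 to 0.34, limma adjusted p = 0.551). The other (A_51_P370600) read 2.93, 2.53 and 3.08, then 2.95, 2.69 and 2.72. Its log2 change was -0.06 ± 0.18, against 0.42 within slide 1. The interval of the second ran from -0.48 to 0.37.

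Elf1, a lymphoid member of the Elf branch, gave overlapping groups on all 3 probes. The brightest (A_51_P113137) read 2.32, 2.52 and 2.63 on the control arrays and 2.77, 1.93 and 2.53 on the Ebf1 arrays (log2 change -0.08 ± 0.23, limma adjusted p = 0.834). Ebf1 replicates 1 and 2 were its extremes. The remaining probes changed by 0.00 ± 0.20 and 0.17 ± 0.23, and within slide 1 the 3 differences were 0.25, 0.47 and 0.20. Elf4, a relative that restrains proliferation of T cells, is represented through its accession by A_52_P127572 and A_51_P448856. On A_52_P127572 the control arrays read -3.12, -3.81 and -2.98 and the Ebf1 arrays -4.40, -3.86 and -2.68, so the Ebf1 arrays held both the lowest and the highest value. The log2 changes of the 2 Elf4 probes were -0.34 ± 0.43 and -0.20 ± 0.21 (limma adjusted p = 0.603 and 0.528), and the interval of the first, -1.35 to 0.66, leaves a wide range of sizes.

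Elk3, a ternary complex factor that binds beside serum response factor, was called on neither of its 2 probes. Its brighter probe (A_52_P627357) read 2.88, 3.26 and 3.34 on the control arrays and 3.19, 3.32 and 3.12 on the Ebf1 arrays, and the Ebf1 values lay within the control range. The log2 change was 0.05 ± 0.17 (95% interval -0.35 to 0.44, limma adjusted p = 0.866), and that of the second probe -0.08 ± 0.15 (-0.43 to 0.27). Within slide 1 these were -0.07 and -0.10.

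Etv6, a repressor required for blood stem cells in the adult marrow, gave a call that depended on the probe. The brighter probe (A_52_P127358, mm9 chr6:134219333-134219392) read -0.23, 0.04 and -0.29 on the control arrays and -0.46, -0.46 and -0.52 on the Ebf1 arrays. Its log2 change of -0.32 ± 0.15 did not pass (95% interval -0.66 to 0.03, limma adjusted p = 0.166). The second probe (A_52_P597800, mm9 chr6:134216458-134216517) read -0.44, -0.38 and -0.36, then -1.18, -0.95 and -0.86. On both probes the groups did not overlap, with all Ebf1 arrays below all control arrays. For the second, the log2 change was -0.60 ± 0.14, a fall (95% interval -0.94 to -0.27, limma adjusted p = 0.0236). The mean of both probes was called (log2 change -0.46 ± 0.12, adjusted p = 0.0319). The call of the second probe was lost with slide as a block (adjusted p = 0.102, difference -0.80 within slide 1). It was also lost with replicate number as a block (0.0593), without control replicate 2 (log2 change -0.60, adjusted p = 0.0891), without control replicate 3 (-0.58, 0.0836) and without Ebf1 replicate 2 (-0.62, 0.0598).

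Gabpa encodes the DNA-binding subunit of GABP, a factor of nuclear genes for mitochondrial proteins. Its brightest probe (A_52_P152283) read 1.62, 1.83 and 1.48 on the control arrays and 1.45, 1.28 and 1.54 on the Ebf1 arrays, with overlapping groups. The log2 change was -0.22 ± 0.16 (95% interval -0.58 to 0.14, limma adjusted p = 0.349). The second probe (A_52_P126238) changed by -0.23 ± 0.18 and the third (A_51_P364984) by 0.06 ± 0.19, neither called. Within slide 1 the 3 differences were -0.39, -0.54 and 0.33, so the probes differ in sign there too.

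**Figure D2:**
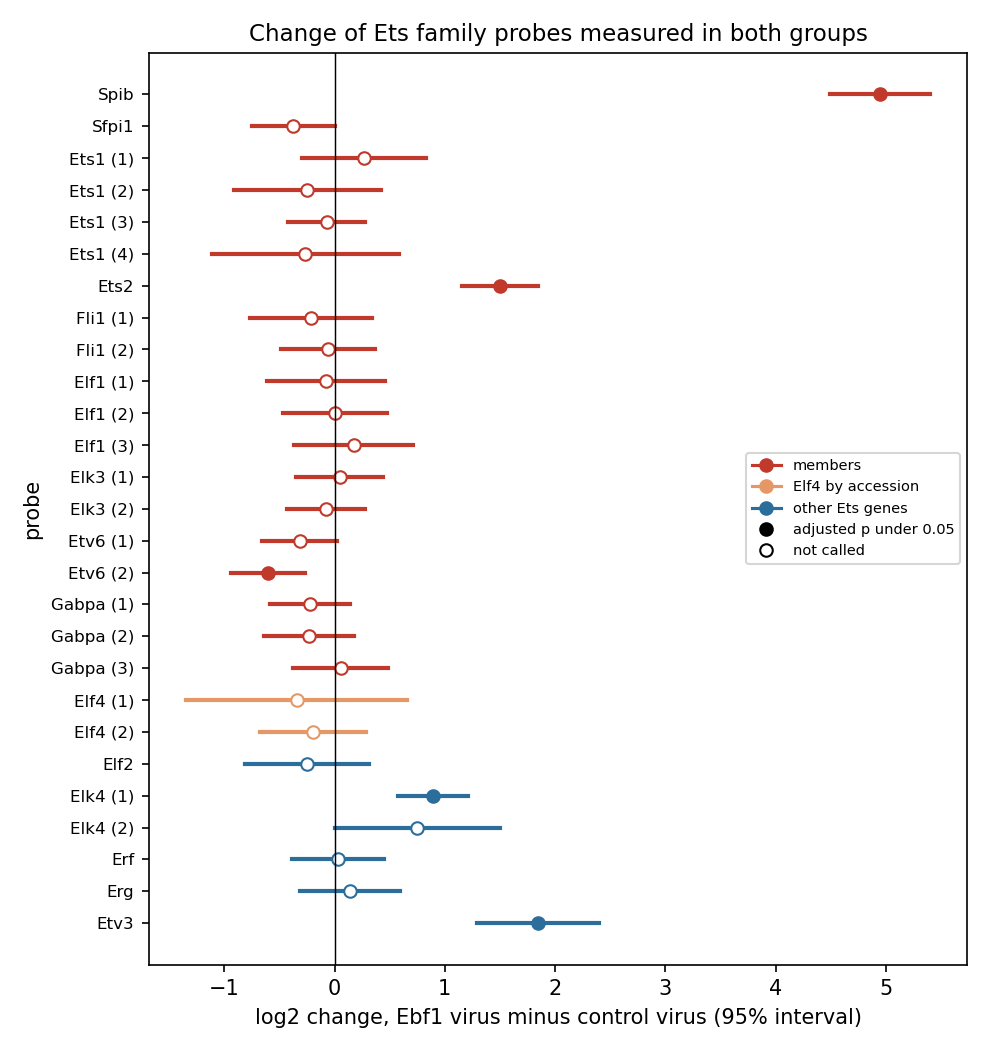
Log2 change, Ebf1 virus minus control virus, with its 95% interval from limma (horizontal axis) for each Ets family probe above background in both groups (vertical axis), filled where the adjusted p is under 0.05. Spib (4.95) and Ets2 (1.50) lie to the right, and the second Etv6 probe (-0.60) is the called member probe to the left. All other member intervals include 0. Probes not above background on any control array, such as that of Spdef, are not drawn.

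Most probes for the rest of the family were not above background on all arrays. Of 25 probes for 16 other Ets genes, 5 were above background on all 6 arrays and 8 probes of 6 genes were tested. The genes not tested were Ehf, Elf3, Elf5, Elk1, Etv1, Etv2, Etv4, Etv5, Fev and Spic, the last being the remaining relative of PU.1 and Spi-B. Of their probes and the untested ones of tested genes, 17 in all, 7 were above background on no array and 8 on Ebf1 replicate 3, 4 of them on that array alone. That array also had the highest share of all probes above background, 59.8%, and its part in these detections was not tested.

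Among the 6 tested relatives 3 rose and 0 fell (median log2 change 0.52), against 12.6% of all genes rising. The count and the median include Spdef, which passed the filter through its Ebf1 arrays only, so its direction followed from the filter. Etv3, a repressor of the Ets family, read -3.04, -3.30 and -3.27 on the control arrays and -0.90, -1.35 and -1.82 on the Ebf1 arrays, with no overlap. It rose by 1.85 ± 0.24 (limma adjusted p = 0.0014), by 2.40 within slide 1 and by 0.95 with normexp background correction. Elk4, a ternary complex factor like Elk3, read 1.11, 1.12 and 1.12, then 2.15, 1.94 and 1.92 on its brightest probe (log2 change 0.89 ± 0.14, adjusted p = 0.0032). Its call was lost with median scaling (0.58, adjusted p = 0.214) and with slide as a block (1.03, adjusted p = 0.0516), and a second Elk4 probe at 0.75 ± 0.32 was not called. Another Elk4 probe (A_52_P378838), not above background on any control array, was not called either (adjusted p = 0.0828) but was called with slide as a block (0.0293), with median scaling (0.00807) and without Ebf1 replicate 1 (0.0457). Spdef, an epithelial family member, was not above background on any control array and was at least 3.54-fold higher with Ebf1. This bound sets the Ebf1 mean against the lowest signal above background on the control arrays. The uncalled relatives Elf2, Erf and Erg changed by -0.25, 0.03 and 0.14.

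Ets factors act with partners, and partner genes moved in both directions. Of 12 such genes 9 were tested, of which 2 rose and 3 fell (55.6% called, all genes 23.6%; median log2 change -0.15, all genes -0.06). Of the 2 that rose, Irf4 passed the filter through its Ebf1 arrays only. With slide as a block, replicate number as a block or normexp correction 1 rose and 2 fell. Runx1, a core-binding factor that pairs with Ets1, read -0.40, -0.33 and -0.27 on the control arrays and -2.56, -1.53 and -1.87 on the Ebf1 arrays. Its groups did not overlap, and its log2 change was -1.65 ± 0.26 (limma adjusted p = 0.0034; -2.23 within slide 1, and smaller but still called with normexp correction, adjusted p = 0.0021). Its subunit partner Cbfb fell by 0.73 ± 0.17 (adjusted p = 0.0201). The Cbfb call was lost with slide as a block (0.0716), with replicate number as a block (0.0521), and without control replicate 2 (-0.61, 0.0822), control replicate 3 (-0.72, 0.0684) or Ebf1 replicate 2 (-0.70, 0.067). Irf4, which binds DNA together with PU.1 or Spi-B, was not above background on any control array and was at least 1.96-fold higher. That call was lost with normexp correction (adjusted p = 0.202), with quantile normalisation (0.0538), without Ebf1 replicate 2 (0.0561) and without Ebf1 replicate 3 (0.059). Named after their values were seen, Irf8, the other interferon regulatory factor that pairs with PU.1, rose by 0.47 ± 0.13, and Cebpa, a myeloid factor, fell by 1.48 ± 0.41. The Irf8 call was lost when any 1 array was left out (0.43 to 0.50, limma adjusted p 0.0654 to 0.153) and with slide (0.218) or replicate number (0.0939) as a block or median scaling (0.75). That of Cebpa was lost with normexp correction (0.085), without any 1 control array (-1.57 to -1.34, 0.0809 to 0.118) and without Ebf1 replicate 3 (-1.60, 0.068). Gabpb1, the partner subunit of GABP alpha, changed by -0.21 ± 0.15 and was not called.

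Among listed genes described as targets of Spi-B or PU.1 in B cells, more rose than fell. The list was chosen with earlier results of these data known, so its counts only describe it. Of 12 tested of 15, 5 rose and 1 fell, against 23.6% of all genes called. The median log2 change was 0.44 (the same with Blnk, not above background in control cells, set to its bound). Of the 5 that rose, Blnk passed the filter through its Ebf1 arrays only, so its direction followed from the filter. Cd79b, which carries the receptor's signal into B cells, read -1.91, -2.08 and -1.85 on the control arrays and 5.64, 5.34 and 5.46 on the Ebf1 arrays, a rise of 7.42 ± 0.15. Bcl6, a repressor of germinal centre B cells, read -1.80, -1.10 and -1.18, then 1.19, 1.05 and 1.49, a rise of 2.61 ± 0.23. Cd72, an inhibitory coreceptor, rose by 2.00 ± 0.17, and for these 3 genes the groups did not overlap. Named after their values were seen, the phospholipase Plcg2 rose by 0.93 ± 0.15 and the receptor P2ry10 fell by 0.89 ± 0.20. The adaptor Blnk, named likewise, read -5.00, -4.06 and -0.94 on Ebf1 replicates 1 to 3. By its Ebf1 mean it was at least 2.59-fold higher, a bound that rests mostly on Ebf1 replicate 3. Cd79a was not above background on any array. With slide as a block 3 rose and 0 fell. The fall of P2ry10 was lost without control replicate 2 or 3 (log2 change -0.84 each, limma adjusted p = 0.0686 and 0.0647) or Ebf1 replicate 2 (-0.75, 0.0573). The call of Blnk was lost without any 1 control array (adjusted p 0.0702 to 0.0941), without Ebf1 replicate 2 (0.0603), with normexp correction (0.0983) and with replicate number (0.0524) or slide (0.487) as a block. Plcg2 lost its call with slide as a block (0.0684) and with median scaling (0.181). Several of these genes are also known as direct targets of Ebf1, and effects of Spib and of Ebf1 on them cannot be told apart here.

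Myeloid and progenitor genes linked to PU.1 were divided. Of 13 tested of 17, 2 rose and 4 fell (46.2% called, median log2 change -0.05), against 12.6% of all genes rising and 11.0% falling. Il7r, the interleukin 7 receptor chain, read 2.70, 2.95 and 2.67 on the control arrays and 1.07, 0.98 and 1.21 on the Ebf1 arrays, a fall of 1.69 ± 0.15 on the log2 scale. Fcgr1, a high-affinity antibody receptor of myeloid cells, fell by 2.29 ± 0.28 (-1.04 with normexp correction). Csf1r, the macrophage growth factor receptor, rose by 1.69 ± 0.23 with 2 of 3 control arrays above background, and lost its call with normexp correction (0.50, limma adjusted p = 0.0596) and with slide as a block (0.0636). Named after their values were seen, Fcgr3 and Adgre1 fell by 0.86 each and the oxidase subunit Ncf4 rose by 0.71. With slide as a block 0 rose and 3 fell. Without control replicate 2 the rise of Ncf4 (log2 change 0.65, adjusted p = 0.0664) and the fall of Adgre1 (-0.70, 0.0736) were lost. Ncf4 also lost its call with median scaling (0.40, adjusted p = 0.408) and with slide as a block (0.132), and Fcgr3 with slide as a block (-0.58, 0.223). Adgre1 also lost its call without control replicate 3 (-0.84, 0.0704), Ebf1 replicate 1 (-0.81, 0.054) or Ebf1 replicate 2 (-0.85, 0.0659). Csf3r and Cybb were not above background on any array.

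Of 8 platelet genes linked to Fli1, 3 were tested, of which 1 rose and 1 fell (66.7% called, all genes 23.6%). Gp9 rose by 1.48 ± 0.16, the integrin chain Itga2b fell, with a log2 change of -1.21 ± 0.36 (limma adjusted p = 0.0479), and Gp1bb changed by -0.52 ± 0.23. The Itga2b call was lost with normexp correction (0.165) and without any 1 of the arrays except Ebf1 replicate 3 (log2 change -1.38 to -0.83, adjusted p 0.0687 to 0.144). Of 8 genes linked to GABP, among them nuclear genes of mitochondrial function, all were tested, 0 rose and 1 fell (12.5% called, all genes 23.6%; median log2 change -0.25, all genes -0.06). With 8 genes, this share cannot be told apart from that of all genes. Skp2, a component of a ubiquitin ligase that drives entry into S phase, fell by 0.46 ± 0.13 (adjusted p = 0.044). Its call was lost with slide (0.424) or replicate number (0.101) as a block, with normexp correction (0.0502), with median scaling (0.0939) and without any 1 of the arrays except Ebf1 replicate 1 (-0.48 to -0.43, adjusted p 0.0958 to 0.127).

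**Figure D3:**
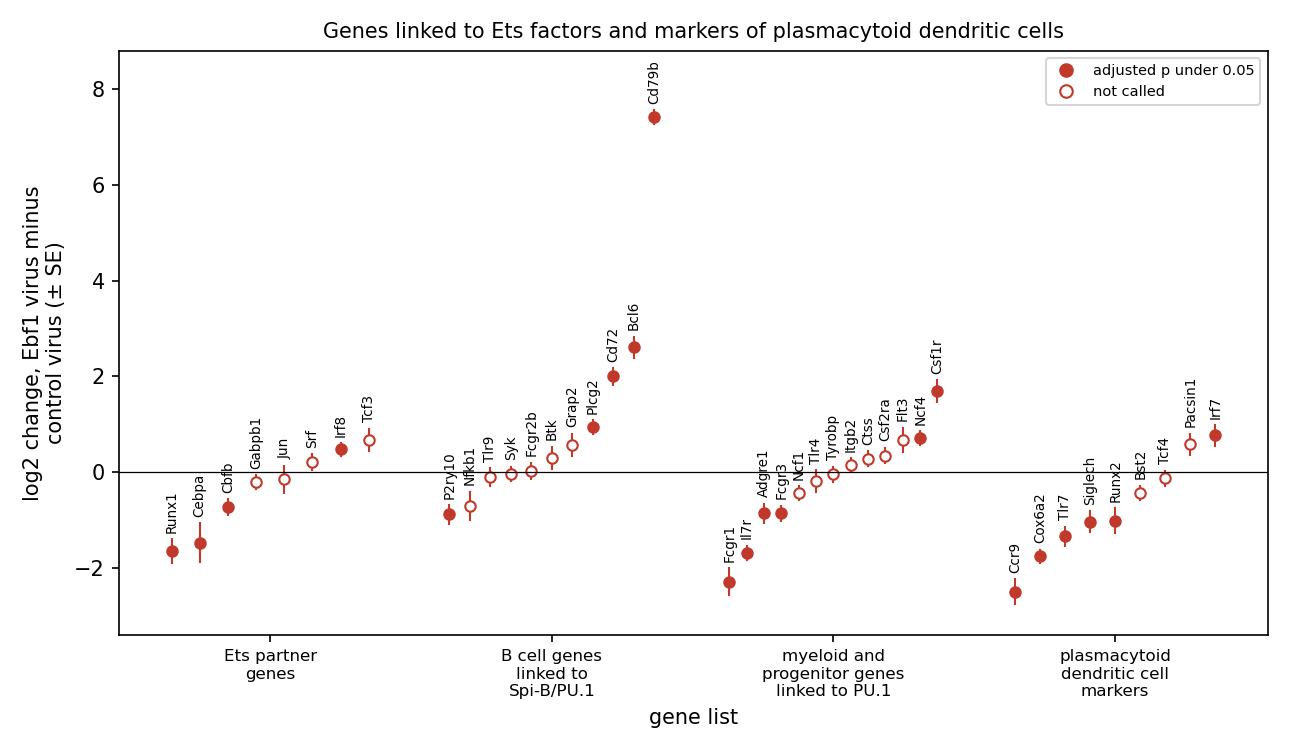
Log2 change, Ebf1 virus minus control virus, with SE bars (vertical axis) for tested genes of 4 lists (horizontal axis), each gene by its brightest probe and filled where the limma adjusted p is under 0.05. Cd79b (7.42) is the highest B cell gene and Ccr9 (-2.50) the lowest plasmacytoid dendritic cell marker; Irf4 and Blnk, not above background on any control array, are not drawn.

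Spib is also a factor of plasmacytoid dendritic cells. Of 12 markers of those cells 9 were tested, of which 1 rose, 5 fell and 3 were not called (66.7% called, median log2 change -1.02). Over all genes 23.6% were called, 11.0% fell and the median was -0.06. With slide as a block 0 rose and 4 fell. Ccr9, a chemokine receptor, read 3.15, 2.78 and 2.99 on the control arrays and -0.03, 0.98 and 0.47 on the Ebf1 arrays, a fall of 2.50 ± 0.26 on the log2 scale. Cox6a2 fell by 1.76 ± 0.14 and Tlr7, a receptor for single-stranded RNA, by 1.34 ± 0.20. Named after their values were seen, Siglech fell by 1.03 (not called with normexp correction, limma adjusted p = 0.325, or slide as a block, 0.201), Runx2 fell by 1.02, and the interferon factor Irf7 rose by 0.77. The Irf7 call was lost when any 1 array except Ebf1 replicate 1 was left out (0.59 to 0.78, adjusted p 0.087 to 0.111), with slide (0.471) or replicate number (0.0709) as a block and with median scaling (0.336). That of Runx2 was lost without control replicate 2 (-0.92, 0.0992), control replicate 3 (-0.97, 0.0907), Ebf1 replicate 1 (-0.79, 0.0605) or Ebf1 replicate 2 (adjusted p = 0.0827). The summed linear signal of the list, in multiples of the array's 75th percentile, was 114 to 135 on control arrays and 66.9 to 78.4 on Ebf1 arrays. Cd209d and Klra17 were not above background on any array. The part of a changing share of such cells in the Ets values was not tested.

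All 10 markers of the labelled pre-pro-B stage were tested, of which 3 rose and 4 fell, against 12.6% and 11.0% of all genes. With slide as a block 1 rose and 4 fell, with replicate number as a block 2 and 4, and with median scaling 1 and 5. Ly6d rose by 2.62 ± 0.19, and Spn (CD43) fell by 1.60 ± 0.14, as did Il7r by 1.69. Summed signals of the other lists, on the same scale, were 13.8 to 20.9 in control and 8.16 to 9.79 in Ebf1 cells for myeloid genes (2 of 5 rose, 2 fell; with slide as a block or normexp correction 0 rose and 2 fell; Mpo fell by 1.77, Csf1r rose by 1.69 and Prtn3 by 1.43, and Csf3r, Ctsg, S100a8 and S100a9 were not above background). They were 22.6 to 24.6 and 20.7 to 22.8 for T cell genes (1 of 7 rose, 3 fell; with slide as a block 0 rose and 1 fell; Trat1 fell by 1.91 and Tcf7 rose by 1.61). For natural killer genes they were 11.3 to 16.2 and 45.9 to 53.9 (1 of 3 rose, 2 fell; Gzma rose by 5.36 and alone held most of the Ebf1 sum, whereas Nkg7 changed by -1.33 and Klrd1 fell by 1.86, a call lost with slide as a block at an adjusted p of 0.056). For erythroid and megakaryocyte genes they were 4.16 to 5.37 and 10.7 to 13.2 (3 of 5 rose, 1 fell; with slide as a block 2 and 1, with normexp correction 2 and 0; the platelet gene Gp9 rose by 1.48 and held most of the sum in both groups, Itga2b fell with a log2 change of -1.21, and Alas2, dim in control cells, was at least 2.50-fold higher). For stroma, the type of the OP9 feeder, they were 9.56 to 13.9 and 15.0 to 19.6 (2 of 8 rose, 0 fell; Dcn, Lum and Postn were not above background). The stromal rise of Fn1, 1.07 ± 0.30, was lost without any 1 of the arrays except Ebf1 replicate 3 (0.75 to 1.23, limma adjusted p 0.0584 to 0.132), with quantile normalisation (0.0546) and with median scaling (0.0993). For endothelium they were 0.456 to 0.502 and 0.509 to 0.683 (2 of 3 rose, 0 fell; Cdh5, Emcn, Kdr, Tek and Tie1 were not above background). Of these, Vwf was at least 1.85-fold higher, and Esam, above background on 1 of 3 control arrays, rose but lost its call without control replicate 1 (adjusted p = 0.0598) or control replicate 2 (0.0554) and with slide as a block (0.0828). With normexp correction Vwf, Esam and the stromal gene Fbn1 (at least 1.45-fold higher) were not called. The erythroid gene Klf1 was at least 1.88-fold higher, a call lost with normexp correction (limma adjusted p = 0.226) and with slide as a block (0.135). Of the erythroid, stromal and endothelial genes that rose, Alas2, Klf1, Fbn1 and Vwf passed the filter through their Ebf1 arrays only. Their direction thus followed from the filter. Whether these shifts have a part in the Ets values was not tested.

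The genes whose pattern over the 6 arrays was closest to that of Spib were found by the root mean square distance between log2 profiles, each centred on its own mean. They were Ren1 (distance 0.13), Lgr6 (0.14), Ano1 (0.19), Slc11a1 (0.22) and Mzb1 (0.24, listed on the array as 2010001M09Rik). Ano1, a chloride channel, rose by 4.82 ± 0.15, and Mzb1, a chaperone-associated protein of B cells, by 4.59 ± 0.17. Ren1, Lgr6 and Slc11a1 were not above background on any control array, and were at least 7.35-fold, 6.22-fold and 11.1-fold higher. Their distances rest on control values below background and have no fixed order.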

How the data were processed

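Each sample's total RNA, in Cy3, went on its own Agilent 1-colour array. The deposited intensity values (processed signal) were made by the authors with Agilent Feature Extraction 10.5.1.1, per the file headers, which subtracts background, and probe positions are those of mm9. The deposited series table held the same intensity values. Log2 signals minus each array's 75th percentile were computed, outlier spots were dropped and spots of a probe averaged. Probes well above background on all 3 arrays of a group were tested with limma 3.58.1 (R 4.3.3 with the package data.table, version 1.17.8; lmFit and eBayes, two-sided, Benjamini-Hochberg over 20453 probes). A probe not above background in 1 group passed through the other group alone, so its direction followed from the filter. The fit was tested on simulated data. Members were matched by array name. Genes of the lists were matched by symbols updated through RefSeq accessions (25097 probes, 61% of all), and a gene is its brightest tested probe.

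The named genes are the members, Ebf1, called relatives, up to 3 called genes with the smallest p per list, and the 5 closest to Spib. Members and all 15 lists were chosen with earlier results of these data known. Some genes were taken off the lists after the results were known and are not reported here. Alternatives were normexp correction (offset 50), quantile or median scaling, other filters, slide or replicate number as a block, eBayes with trend, the mean of all probes, each array left out in turn, and the series table. No genome was used, so probes were not placed in exons.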

Additional observations from a re-analysis of the deposited data

How the results depend on the processing

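Spib and Ets2 kept their direction and their call under all alternatives run, and Spib ranged from 4.43 with normexp correction to 5.04 without Ebf1 replicate 1. With the mean of all probes 1 member, Etv6, counted as fallen, where 0 fell by the brightest probe. None of these results was reversed while past the threshold. Over all probes, 2349 rose and 2085 fell. The rises numbered 1256 with median scaling (2642 falls, so 32.2% of calls rose against 53.0%), 1341 without a filter and 1270 with slide as a block. The falls numbered 655 without a filter and 898 with slide as a block. Leaving out each array in turn gave 1592 to 2121 rises and 1016 (without control replicate 2) to 1687 falls, with 1062 without control replicate 3 and 1272 without Ebf1 replicate 2. The cause was not tested. The replicate block gave 1862 rises and 1233 falls. Deviations of same-numbered samples from their group means correlated at r = -0.17, -0.25 and 0.10. The highest r of any control and Ebf1 pair, 0.29, was that of control replicate 2 and Ebf1 replicate 1, which share slide 1. With 3 arrays per group and slides shared unevenly, this cannot settle whether the numbers are a pairing, and they were not taken as one. Among the genes named by the rule the replicate block ended the calls of the second Etv6 probe, Cbfb and Skp2, and among the others named those of Irf7, Irf8 and Blnk. Without a filter 41174 probes were adjusted over, and the second Etv6 probe, Irf4, Irf7, Irf8, Cbfb, Cebpa, Blnk, P2ry10, Adgre1, Fcgr3, Ncf4, Itga2b, Skp2, Siglech, Runx2, Fn1 and Esam lost their call. The intervals of the dimmest Ets1 probe and of an Elf4 probe reached beyond 1 log2 unit. The deposited table changed nothing.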
